A study of Mus musculus with 24 samples.

Results

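The response of control C2C12 cells to forskolin at day 7 was taken from 6 of the 24 RNA sequencing libraries of a mouse series. They are the 3 libraries labelled as control cells at day 7 with forskolin and the 3 labelled as control cells at day 7 without it. C2C12 is a mouse myoblast line that fuses into muscle fibres in culture. The treated control cells had received 10 µM forskolin for 4 h, and the untreated control cells had not. The other C2C12 libraries are cells expressing NFIA, a nuclear factor I transcription factor, in the same states, and both kinds of cells at day 0; the series also holds brown adipose tissue. The labels do not describe how the control cells were made, the culture medium or whether the 3 libraries of a group came from separate cultures, so p-values measure the spread between these libraries, which may be technical.

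Forskolin is a plant diterpene that switches on adenylyl cyclase, the enzyme that makes cAMP, without a hormone receptor. cAMP frees the catalytic subunits of protein kinase A, which phosphorylates the transcription factor CREB and, by inhibiting the salt-inducible kinases, lets the CRTC coactivators enter the nucleus. CREB binds the cAMP response element (CRE) near the start of genes such as the NR4A orphan receptors, and several of its targets, among them phosphodiesterases and CREM repressors, bring the signal down again. In many cultured cells cAMP also loosens actin stress fibres, and with them the activity of serum response factor (SRF) and of the coactivator YAP, which read actin and cell tension.

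Values are FPKM, fragments per kilobase of transcript scaled to the mapped fragments of the library, and a difference is the log2 fold change of FPKM + 1 with its standard error, forskolin minus untreated. This scale understates changes of genes with low FPKM. Groups are means ± SD over 3 libraries each. Of 13235 genes with at least 1 FPKM in at least 3 of the 6 libraries, 569 (4.3%) were called at an adjusted p under 0.05, 269 higher (2.03% of those tested) and 300 lower (2.27%), and 1683 had an unadjusted p under 0.05. The median over all genes was -0.01. Some genes, among them Ppargc1a, Pax7, Il6, Npy1r and Tnfsf11, passed the filter through the forskolin libraries alone, and Pde1b through the untreated ones alone. Whether such genes were tested thus depended on the difference itself. The changes were mostly small: 44 genes rose and 27 fell by at least 2-fold, and the median of the called genes was 0.57 for those that rose and -0.49 for those that fell. In 567 of the 569 the libraries of the groups did not overlap, which held for 19.1% of all genes tested. In a fit of the 6 libraries alone, without the other C2C12 groups, 239 genes were called. With 1 library left out the number called lay between 372 and 446; it was 372 without forskolin replicate 2 and 372 without untreated replicate 2. Calls that held whichever of the 6 libraries was left out numbered 308, of which 153 were higher and 155 lower.

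**Figure D1:**
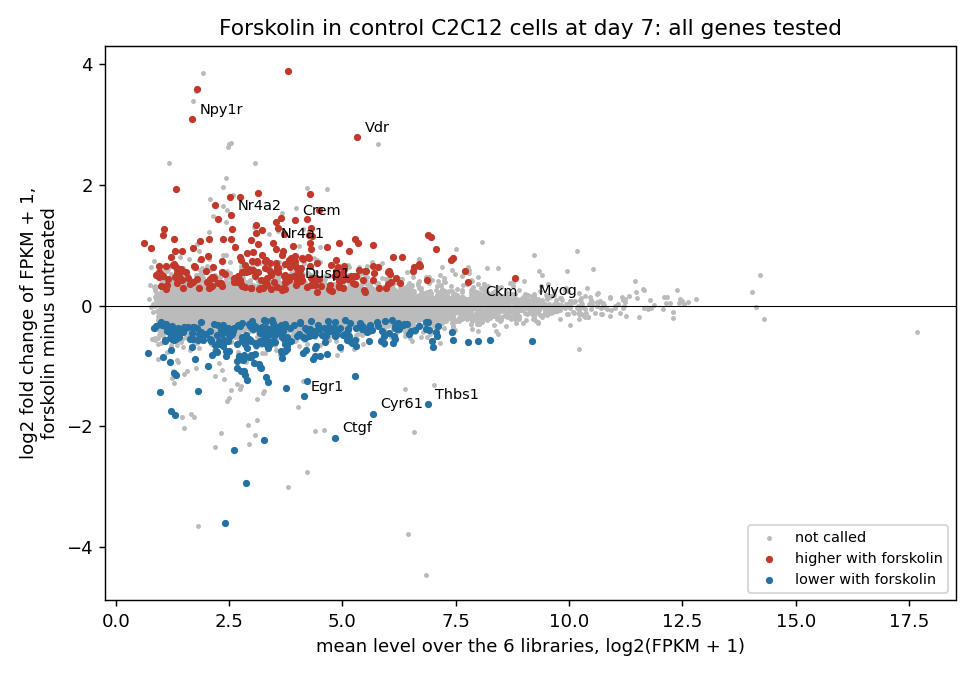
Log2 fold change of FPKM + 1 (forskolin minus untreated, vertical) against the mean log2(FPKM + 1) over the 6 control libraries at day 7 (horizontal) for the 13235 genes tested; each point is 1 gene, red called higher, blue called lower, grey not called. Npy1r and Vdr lie far above 0, Ctgf, Cyr61 and Thbs1 far below, and the muscle genes Myog and Ckm near 0.

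FPKM sums were 834959 to 1238931 in the forskolin libraries and 1064826 to 1148357 in the untreated ones, and 18665 to 19935 genes per library were above 0; the tables hold no read numbers, and the depth of a library is therefore unknown. Replicates correlated at 0.9725 to 0.9889 (Pearson, log2 values across genes). Replicate 1 of each group carries an earlier year in its table header than replicates 2 and 3. The header of forskolin replicate 1 also lacks a suffix that the other 5 libraries carry, whose meaning is not stated. In a principal component analysis the leading component (38.3% of the variance) set replicate 1 of both groups apart, at 35.3 for forskolin and 17.2 for untreated, from the other 4 at -21.9 to -7.56. The second component (24.4%) separated forskolin libraries (9.06 to 22.7) from untreated ones (-20.4 to -10.9). Forskolin replicate 1 also held less of 1 short RNA entry, mmu-mir-703 (71371 FPKM, against 267768 and 302489 in the other forskolin libraries and 202192 to 298151 in the untreated ones). Without that library 446 genes were called, and the later-year libraries alone gave 781; the earlier year holds 1 library a group and gives no test of its own.

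The muscle label held: Acta1, the skeletal muscle actin, had 1892, 2413 and 2641 FPKM with forskolin and 2424, 2707 and 2603 FPKM without. Fabp4, Adipoq, Plin1 and Cidec, which mark fat cells, were at most 6.54 FPKM in any of the 6 libraries, and Adipoq at most 0.14. The summed level of 8 immune markers was 1.5 to 2.76 FPKM with forskolin and 1.86 to 2.15 FPKM without, that of 6 endothelial markers 0.9 to 1.24 and 0.58 to 0.76 FPKM, and Ptprc and Sox10 were at 0.01 FPKM or less. The endothelial gene Kdr was at 0.58, 0.35 and 0.54 FPKM with forskolin and 0.09, 0.07 and 0.08 FPKM without, below the filter, and the part of such cells in the results was not tested. Nfia was 1.57 ± 0.25 FPKM with forskolin and 1.33 ± 0.785 FPKM without (adjusted p = 0.898).

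Forskolin raised 12 classical CREB target genes, Nr4a2 by the largest log2 change. Of 31 genes listed as classical CREB targets, 26 could be tested; 12 rose and 2 fell, with a list median of 0.39 against -0.01 over all genes. The 12 that rose were Nr4a1, Nr4a2, Crem, Sik1, Per1, Per2, Pde4b, Pde4d, Ppargc1a, Rgs2, Nfil3 and Gem, and the 2 that fell were Atf3 and Klf4; 11 of the 12 held whichever library was left out, Nfil3 being the exception. The share called in the list, 53.8%, stands beside 4.3% of all genes, and the 5 untested genes (Nr4a3, Fosb, Pde10a, Pck1 and Areg) were below the filter. The list was chosen with earlier results of these data known, so its count is a description. Among the 12, Ppargc1a passed the filter through the forskolin libraries alone.

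**Figure D2:**
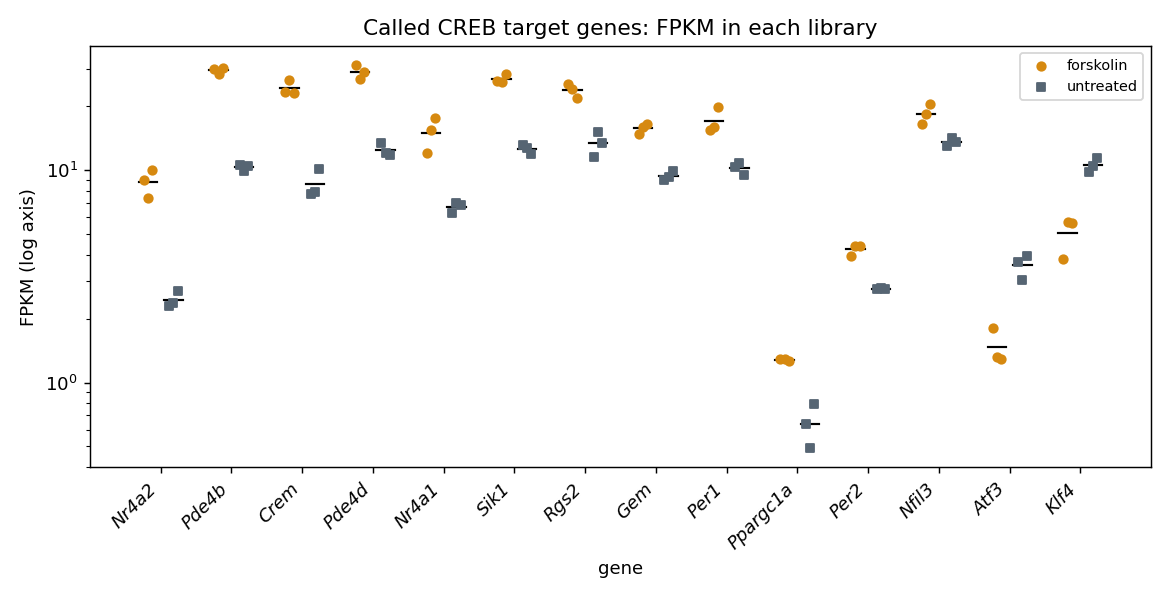
FPKM (log axis) in each control library at day 7 for the 14 called genes of the CREB target list, ordered by log2 fold change; orange circles are forskolin libraries, grey squares untreated libraries, and black lines the group means. The circles lie above the squares in 12 genes and below them in Atf3 and Klf4, with no overlap.

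The NR4A receptors are orphan nuclear receptors and early products of CREB. Nr4a1 (ENSMUSG00000023034.6, mm9 chromosome 15, 101097277 to 101105223) was at 12.03, 15.4 and 17.6 FPKM in the 3 forskolin libraries and at 6.29, 7.03 and 6.89 FPKM in the untreated ones, a rise of 1.04 ± 0.18 (adjusted p = 0.0023). Nr4a2 was at 8.98, 7.37 and 10.1 FPKM with forskolin and 2.29, 2.38 and 2.69 FPKM without (1.5 ± 0.13; adjusted p = 6.3e-06). In both genes every treated library lay above every untreated one. Nr4a3 stayed below the filter, at 1.1, 0.82 and 1.02 FPKM with forskolin and 0.34, 0.31 and 0.24 FPKM without, and was not tested.

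The 250 bases before the annotated start of Nr4a1 (RefSeq, GRCm38.p6, chr15:101266596-101266845, plus strand) are shown because this gene is a standard CREB target; capitals mark 4 short CRE motifs (TGACG, on either strand), which begin 233, 213, 69 and 40 bases before the start.
Nr4a1: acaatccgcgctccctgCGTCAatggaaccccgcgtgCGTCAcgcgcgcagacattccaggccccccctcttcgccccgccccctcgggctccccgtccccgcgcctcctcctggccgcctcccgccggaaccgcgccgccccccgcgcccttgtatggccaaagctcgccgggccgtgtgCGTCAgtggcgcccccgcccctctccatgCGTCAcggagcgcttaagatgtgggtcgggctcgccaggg
The full palindrome TGACGTCA, which holds the short motif on each strand, was searched in windows of this length for every gene with a RefSeq match. Some genes have several windows, and a gene was counted if any of them held the motif. There were 229 windows for the 172 genes that rose, 270 for the 195 that fell and 10648 for the 8292 tested. The palindrome was present in 9 of 172 genes that rose (5.23%), in 1 of 195 that fell (0.513%), in 3.17% of the 8292 RefSeq genes matched to those tested and in 1.77% of all 27025 genes in the table. The short motif was present in 34.9% of the genes that rose, 20.5% of those that fell and 31.3% of those tested. Of the 9 genes with the palindrome, the calls of 2 held whichever library was left out, Mcam and Hs3st3a1, and their windows are shown for that reason, chosen after the matches were seen. In Mcam, a cell adhesion molecule (chr9:44134408-44134657, plus strand), the palindrome in capitals begins 29 bases before the start. In Hs3st3a1, a heparan sulfate sulfotransferase (chr11:64435082-64435331, plus strand), it begins 83 bases before, and a separate short motif 201 bases before.
Mcam: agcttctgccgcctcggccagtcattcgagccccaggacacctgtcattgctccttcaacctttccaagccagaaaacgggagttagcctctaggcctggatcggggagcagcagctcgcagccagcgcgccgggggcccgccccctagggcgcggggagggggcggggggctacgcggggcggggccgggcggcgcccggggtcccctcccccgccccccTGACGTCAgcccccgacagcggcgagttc
Hs3st3a1: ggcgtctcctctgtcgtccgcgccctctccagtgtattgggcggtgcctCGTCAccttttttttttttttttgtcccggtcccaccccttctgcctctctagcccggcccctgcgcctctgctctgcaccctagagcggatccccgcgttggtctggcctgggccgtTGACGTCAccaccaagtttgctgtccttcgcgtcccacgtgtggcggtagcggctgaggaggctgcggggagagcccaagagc
Mcam was at 24.01, 31.5 and 34.8 FPKM with forskolin and 10.4, 12 and 12.6 FPKM without (1.28 ± 0.12; adjusted p = 1.3e-05). Hs3st3a1 was at 3.2, 3.52 and 3.89 FPKM with forskolin and 1.35, 1.33 and 1.32 FPKM without (0.96 ± 0.08; adjusted p = 2.5e-06). A match of letters describes the window and is not evidence of binding.

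Genes that damp the cAMP signal were among those that rose. Of 21 tested genes for cAMP production, breakdown and protein kinase A, 3 rose and 1 fell (19% called, against 4.3% of all genes). All 4 encode phosphodiesterases, the enzymes that break down cyclic nucleotides. The 1 that fell, Pde1b, passed the filter through the untreated libraries alone. Pde4b, of the cAMP-specific family 4 (ENSMUSG00000028525.9, mm9 chromosome 4, 101760148 to 102279864), was at 29.9, 28.4 and 30.4 FPKM with forskolin and 10.5, 9.97 and 10.5 FPKM without, 2.86-fold higher (1.43 ± 0.09; adjusted p = 2.5e-07). Pde4d was at 31.3, 26.96 and 29.01 FPKM with forskolin and 13.5, 12.1 and 11.8 FPKM without (1.16 ± 0.13; adjusted p = 7.8e-05). Both sets of treated libraries lay more than 2-fold above the untreated mean. Pde3b, a phosphodiesterase known from insulin action in fat and liver, was at 15.04, 9.73 and 10.3 FPKM with forskolin, highest in replicate 1, and at 5.13, 5.03 and 5.26 FPKM without (1.02 ± 0.20; adjusted p = 0.0059). Pde1b, a calmodulin-dependent form, fell to 0.9 ± 0.0624 FPKM, against 1.4 ± 0.157 FPKM in untreated cells (adjusted p = 0.0065). The other 17 genes, which cover adenylyl cyclases, kinase A subunits and further phosphodiesterases, were not called.

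In the CREB, CRTC and SIK circuit, 3 of 12 tested genes rose (25%, against 2.03% of all genes) and none fell, none of these 3 calls ending with any 1 library left out. Crem, whose inducible short form ICER represses CREB sites, was at 23.4, 26.6 and 23.2 FPKM with forskolin and 7.73, 7.91 and 10.1 FPKM without, 2.84-fold higher (1.41 ± 0.11; adjusted p = 2.9e-06). The table gives 1 value for the gene, so the repressor form and the others are not told apart. Sik1, a kinase that holds CRTCs in the cytoplasm, was at 26.3, 26.1 and 28.4 FPKM with forskolin and 13.2, 12.7 and 11.98 FPKM without (1.03 ± 0.10; adjusted p = 1.3e-05). Its relative Sik2 rose less, to 6.54 ± 0.278 FPKM with forskolin, against 4.56 ± 0.395 FPKM without (0.44 ± 0.07; adjusted p = 0.0021). Rgs2, an inhibitor of Gq signalling, and Gem, a small GTPase that restrains calcium channels, are further CREB targets picked here after their values were seen: Rgs2 was 23.9 ± 1.77 FPKM with forskolin and 13.4 ± 1.84 FPKM without (adjusted p = 0.00051), and Gem 15.8 ± 0.944 and 9.42 ± 0.434 FPKM (adjusted p = 0.00041).

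Ppargc1a, which encodes the coactivator PGC-1alpha and is a CREB target in muscle and brown fat, was low in every library. It passed the filter through the forskolin libraries alone. It was at 1.29, 1.29 and 1.27 FPKM with forskolin and 0.64, 0.49 and 0.79 FPKM without, 2.005-fold higher in linear terms (0.48 ± 0.08; adjusted p = 0.0024). Of the 9 tested PGC-1 coactivators and partners it was the 1 called (11.1%, against 4.3% of all genes), and 0 were called in a fit of the 6 libraries alone. None of 62 nuclear-encoded oxidative phosphorylation genes was called, against 4.3% of all genes, and their median was 0.01. That median depended on single libraries, at 0.194 without forskolin replicate 1 and -0.145 without untreated replicate 1.

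Clock genes, of which Per1 and Per2 are known CREB targets, had several members that rose. Of 15 tested, 5 rose (Per1, Per2, Rora, Nfil3 and Arntl) and none fell, with a median of 0.27. The share that rose, 33.3%, stands beside 2.03% of all genes. Per1, a repressor of the clock, was at 15.4, 15.98 and 19.8 FPKM with forskolin and 10.3, 10.8 and 9.48 FPKM without (0.68 ± 0.10; adjusted p = 0.00097). Per2 was at 4.25 ± 0.28 FPKM with forskolin and 2.77 ± 0.02 FPKM without (adjusted p = 0.00093), and Rora, an orphan receptor that drives Arntl, at 2.097 ± 0.17 and 1.13 ± 0.0361 FPKM (adjusted p = 0.00067). Nfil3 and Arntl were nearer the threshold. The call of Nfil3 (adjusted p = 0.023) ended when any library but forskolin replicate 1 was left out (up to 0.114). That of Arntl (adjusted p = 0.044) ended without forskolin replicate 2 or 3 or untreated replicate 1 or 2 (up to 0.182), which leaves 3 to 5 clock genes called; 3 rose in a fit of the 6 libraries alone.

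Immediate early genes included both rises and falls. Of 14 AP-1 and EGR genes tested, 2 rose and 3 fell (35.7% called, against 4.3% of all genes), with a median of -0.10. Fosl1 and Fosl2, which encode the Fos relatives FRA-1 and FRA-2, rose: Fosl1 was at 16.3, 18.1 and 15.8 FPKM with forskolin and 8.46, 9.16 and 7.67 FPKM without (0.91 ± 0.10, adjusted p = 7.6e-05), and Fosl2 at 36.8 ± 1.22 and 25.2 ± 0.91 FPKM (adjusted p = 0.00012). Fos was at 2.17, 3.3 and 2.15 FPKM with forskolin and 1.43, 1.72 and 1.81 FPKM without, a difference of 0.40 ± 0.14 that missed the threshold (adjusted p = 0.18). Fos passed with quantile normalization (adjusted p = 0.033) and with the header year as a term (0.042). Junb was at 40.2 ± 11.7 FPKM with forskolin and 42.6 ± 8.18 FPKM without (adjusted p = 0.996). The RNA was taken at 4 h, so an earlier peak of these genes is not analysed here. Dusp1, a phosphatase of MAP kinases, was at 13.8, 18.6 and 19.8 FPKM with forskolin and 10.9, 13.9 and 14.9 FPKM without, and was not called (adjusted p = 0.49; 0.014 in the later-year libraries alone and 0.00103 with the header year as a term).

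The 3 immediate early genes that fell were Egr2, Atf3 and Myc, and Egr1, outside that list but among the 12 genes with the largest falls, fell with them. Egr1 encodes a zinc finger factor induced by growth signals; it was at 9.03, 9.63 and 9.89 FPKM with forskolin and 28.1, 30.4 and 27.7 FPKM without (-1.5 ± 0.09; adjusted p = 1.3e-07). Egr2, its relative, was at 1.29, 0.89 and 1.29 FPKM with forskolin and 3.56, 4.93 and 5.84 FPKM without (-1.41 ± 0.22; adjusted p = 0.001). In both the groups lay far apart. Atf3, a stress-induced repressor, was at 1.81, 1.32 and 1.29 FPKM with forskolin and 3.69, 3.04 and 3.96 FPKM without (-0.88 ± 0.11; adjusted p = 0.00022). In other cells it is known as a CREB target. Myc was at 8.31 ± 0.644 FPKM with forskolin and 13.1 ± 0.745 FPKM without (adjusted p = 0.0014), and Klf4, named after its values were seen, at 5.05 ± 1.08 and 10.6 ± 0.857 FPKM (adjusted p = 0.0045). Dusp6, a phosphatase that ERK signalling induces and that switches ERK off, was at 5.14, 6.23 and 4.74 FPKM with forskolin and 11.2, 12.2 and 12.3 FPKM without (-1.02 ± 0.12; adjusted p = 0.00013).

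SRF and YAP targets were the list with the most members called lower of the 35. Of 21 tested, 10 fell and none rose, those that fell including Ctgf, Cyr61, Thbs1, Fhl2, Actb, Actg1, Cnn2, Vcl and Flna, with a median of -0.43 against -0.01 over all genes and 2.27% of all genes called lower. With 1 library left out, 7 to 10 fell, and 6, among them Ctgf, Cyr61, Thbs1, Actb and Actg1, were called whichever library that was. In a fit of the 6 libraries alone 4 fell. With 1 library left out the count was 7 without forskolin replicate 2, untreated replicate 2 or untreated replicate 3, and 9 without forskolin replicate 1 or untreated replicate 1. The summed level of the 21 genes was 2936 to 3229 FPKM with forskolin and 3967 to 4106 FPKM without, with no overlap.

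Ctgf and Cyr61 encode secreted matricellular proteins and are textbook YAP targets. Ctgf (ENSMUSG00000019997.4, mm9 chromosome 10, 24269247 to 24318489) was at 10.5, 12.8 and 14.3 FPKM with forskolin and 54.05, 64.1 and 63.03 FPKM without (-2.19 ± 0.12; adjusted p = 6.2e-08). Cyr61 (ENSMUSG00000028195.3, mm9 chromosome 3, 145309935 to 145312949) was at 21.5, 28.4 and 30.1 FPKM with forskolin and 80.8, 101 and 101 FPKM without (-1.79 ± 0.16; adjusted p = 7.4e-06). In both genes every treated library lay far below every untreated one. The position given for Ctgf is that of its listed locus, which can span more than the gene. Thbs1, a matrix glycoprotein that activates latent TGF-beta, was at 70.8, 61.8 and 66.5 FPKM with forskolin and 235, 198 and 192 FPKM without (-1.63 ± 0.11; adjusted p = 3.6e-07).

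**Figure D3:**
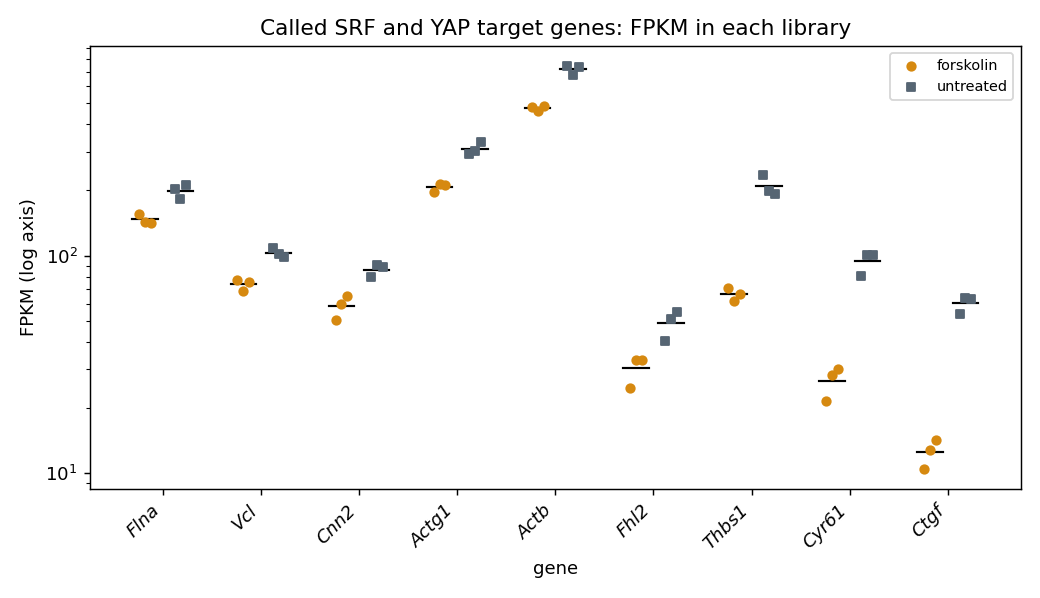
FPKM (log axis) in each control library at day 7 for 9 of the 10 called genes of the SRF and YAP target list, ordered by log2 fold change; orange circles are forskolin libraries, grey squares untreated libraries, and black lines the group means. The circles lie below the squares in all 9 genes shown.

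The cytoplasmic actins and the proteins that bind them fell by less. Actb was at 482, 461 and 487 FPKM with forskolin and 742, 674 and 731 FPKM without (-0.58 ± 0.10; adjusted p = 0.0022). Actg1 was at 196, 214 and 210.2 FPKM with forskolin and 292, 303 and 334 FPKM without (-0.58 ± 0.10; adjusted p = 0.0021). Vcl (vinculin, which ties actin to adhesions), Flna (filamin A, an actin crosslinker), Cnn2 (a calponin) and Fhl2 (a LIM protein) fell by 0.43 to 0.67, with adjusted p from 0.01 to 0.027; each of these 4 calls ended without at least 1 library. For Vcl these were forskolin replicate 2 and untreated replicates 1 and 2 (adjusted p up to 0.0872), and for Flna forskolin replicate 2 and untreated replicate 3 (up to 0.0601). For Cnn2 they were forskolin replicates 1 and 2 and untreated replicates 2 and 3 (up to 0.105), and for Fhl2 forskolin replicate 1 and untreated replicates 2 and 3 (up to 0.131). The smooth muscle genes Acta2, at 868 ± 83.9 FPKM with forskolin and 909.5 ± 47.1 FPKM without, and Tagln, at 238 ± 24.8 and 267 ± 14.4 FPKM, are in the same list and were not called.

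SRF binds the CArG box, and the upstream windows of the falling genes were searched for it on both strands. It was present in 10 of 195 genes that fell (5.13%), in 1 of 172 that rose (0.581%), in 1.56% of matched genes tested and in 1.62% of all genes in the table. The 10 were Actg1, Arpc4, Asb5, Cnn2, Egr2, Fhl2, Lef1, Myadm, Tcf7 and Vcl, of which 5 (Actg1, Asb5, Egr2, Lef1 and Tcf7) were called whichever library was left out. The TEAD motif CATTCC, through which YAP acts, was in 15.4% of genes that fell, 11.6% of those that rose and 12.8% of those tested. Windows of 4 of the genes are shown, chosen after the matches were seen, with the CArG box in capitals; all are RefSeq, GRCm38.p6. That of Actg1 (chr11:120348496-120348745, minus strand) has it 90 bases before the start, that of Cnn2 (chr10:79988350-79988599, plus strand) 56 bases, that of Egr2 (chr10:67537316-67537565, plus strand) 72 bases, and that of Asb5, a muscle ankyrin repeat protein (chr8:54550081-54550330, plus strand), 211 bases. Egr2 has 5 windows and Asb5 has 3. For each the most upstream window that holds the box is shown, and the distance is from the start belonging to it.
Actg1: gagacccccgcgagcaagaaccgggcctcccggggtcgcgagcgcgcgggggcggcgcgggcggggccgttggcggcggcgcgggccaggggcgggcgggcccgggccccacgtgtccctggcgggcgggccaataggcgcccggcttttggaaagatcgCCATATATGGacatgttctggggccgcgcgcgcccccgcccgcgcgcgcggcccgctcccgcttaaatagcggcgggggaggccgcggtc
Cnn2: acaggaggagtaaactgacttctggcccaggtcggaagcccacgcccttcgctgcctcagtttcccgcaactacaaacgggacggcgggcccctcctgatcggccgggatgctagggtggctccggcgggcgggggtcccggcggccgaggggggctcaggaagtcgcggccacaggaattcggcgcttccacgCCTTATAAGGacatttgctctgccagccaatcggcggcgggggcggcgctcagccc
Egr2: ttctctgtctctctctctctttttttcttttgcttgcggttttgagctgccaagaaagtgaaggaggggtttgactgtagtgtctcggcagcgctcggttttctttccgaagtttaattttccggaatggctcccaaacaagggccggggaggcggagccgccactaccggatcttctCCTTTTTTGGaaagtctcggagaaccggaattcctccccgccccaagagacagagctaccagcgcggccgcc
Asb5: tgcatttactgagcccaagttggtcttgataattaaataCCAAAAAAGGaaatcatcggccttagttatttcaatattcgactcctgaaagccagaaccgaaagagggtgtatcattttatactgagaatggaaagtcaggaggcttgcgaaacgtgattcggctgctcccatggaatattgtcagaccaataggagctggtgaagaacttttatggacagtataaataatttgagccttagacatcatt
Asb5 was at 102 ± 3.896 FPKM with forskolin and 153 ± 12.1 FPKM without (adjusted p = 0.00065), and Cnn2 at 58.5 ± 7.44 and 86.3 ± 5.44 FPKM. The Wnt-pathway factors Lef1 (2.103 ± 0.123 FPKM with forskolin, 3.43 ± 0.0709 FPKM without) and Tcf7 (4.07 ± 0.246 and 5.997 ± 0.182 FPKM) also fell (adjusted p = 0.00092 and 0.0084).

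Npy1r and Vdr were among the 12 genes named for the largest rises. Npy1r, a receptor for neuropeptide Y that couples to the inhibition of adenylyl cyclase (ENSMUSG00000036437.5, mm9 chromosome 8, 69221321 to 69230697), was at 9.2, 8.99 and 7.04 FPKM with forskolin and 0.07, 0.12 and 0.12 FPKM without. Its mean was 81.4-fold higher with forskolin (3.08 ± 0.08; adjusted p = 7.7e-12), but the untreated level is close to 0, so the fold is imprecise. Vdr, the vitamin D receptor (ENSMUSG00000022479.9, mm9 chromosome 15, 97684856 to 97741061), was at 82.1, 117 and 119.9 FPKM with forskolin and 13.8, 15.97 and 13.2 FPKM without, 7.41-fold higher (2.79 ± 0.17; adjusted p = 1.8e-07). The treated libraries stood well above the untreated ones in both genes, with forskolin replicate 1 the lowest treated library for Vdr. Il1rl1, the receptor of interleukin 33, was at 7.47, 10.8 and 10.99 FPKM with forskolin and 2.19, 1.75 and 2.28 FPKM without (adjusted p = 1.5e-05). Cntfr, the binding subunit for ciliary neurotrophic factor, was at 28.3, 38.5 and 43.2 FPKM with forskolin and 7.85, 10.7 and 9.56 FPKM without (adjusted p = 0.00019). Bdkrb1, the inducible bradykinin receptor, was at 6.91 ± 1.25 FPKM with forskolin and 1.92 ± 0.35 FPKM without (adjusted p = 0.00026). Among prostaglandin genes, 1 of 13 rose and 1 fell (15.4% called, against 4.3% of all genes), both receptors: Ptgfr, for prostaglandin F, was at 18.1 ± 5.14 FPKM with forskolin and 6.31 ± 1.74 FPKM without (adjusted p = 0.011, up to 0.0686 without forskolin replicate 2 or untreated replicate 1), and Ptger4, a cAMP-raising receptor for prostaglandin E, at 2.13 ± 0.181 and 3.62 ± 0.276 FPKM (adjusted p = 0.00057).

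Slc1a3, Syt13 and Ranbp3l were also among the 12 largest rises. Slc1a3, a glutamate transporter best known from glia, was at 38.6, 37.2 and 37.3 FPKM with forskolin and 12.7, 13.2 and 10.3 FPKM without (1.58 ± 0.10; adjusted p = 3.6e-07). Syt13, an atypical synaptotagmin, was at 19.7, 19.6 and 19.6 FPKM with forskolin and 6.93, 6.66 and 5.96 FPKM without (1.46 ± 0.09; adjusted p = 1.7e-07). Ranbp3l, related to the nuclear export cofactor RANBP3, varied more, at 16.8, 11.5 and 7.51 FPKM with forskolin and 2.84, 3.44 and 1.65 FPKM without (adjusted p = 0.0026). Among the genes with large falls were Rgs3, which limits G protein signalling, at 7.1, 7.66 and 7.48 FPKM with forskolin and 19.03, 21.4 and 21.6 FPKM without (-1.36 ± 0.14; adjusted p = 4.3e-05), and Cyth3, an exchange factor for ARF GTPases, at 11.2, 10.8 and 11.2 FPKM with forskolin and 25.2, 30.8 and 27.01 FPKM without (-1.24 ± 0.14; adjusted p = 7.8e-05). The forkhead gene Foxs1 was at 5.77 ± 1.602 FPKM with forskolin and 15.1 ± 2.73 FPKM without (adjusted p = 0.0049).

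Some short RNA entries were also called, although the libraries were made from polyadenylated RNA. Snora68, a small nucleolar RNA, was at 26.9, 12.4 and 3.64 FPKM with forskolin and listed at 0 in all untreated libraries (adjusted p = 0.031); the call ended when any library but forskolin replicate 3 was left out (up to 0.146). A 7SK entry was at 3.8, 2.31 and 4.5 FPKM with forskolin and 32.6, 17.9 and 13.1 FPKM without (adjusted p = 0.0082; 0.05 without forskolin replicate 2), and 3 U1 entries, near-identical copies whose reads cannot be assigned with certainty, were lower with forskolin. The U1 entry ENSMUSG00000065941.1 was at 2.47, 0 and 0 FPKM with forskolin and 18.7, 38.6 and 7.02 FPKM without (adjusted p = 0.0067). The calls of the other 2 ended without forskolin replicate 2 or any untreated library, and 1 of them also without forskolin replicate 1 (adjusted p up to 0.243).

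Of 21 tested cytokine, chemokine and SOCS genes, 5 rose (Cxcl5, Cxcl1, Il6, Socs2 and Osmr) and 1 fell (Cxcl12), with a median of -0.02. That is 28.6% called, against 4.3% of all genes. Il6 is counted although it passed the filter through the forskolin libraries alone. Cxcl5 and Cxcl1 attract neutrophils. Cxcl5 was at 13.9, 18.1 and 15.5 FPKM with forskolin and 3.07, 4.18 and 3.64 FPKM without (1.86 ± 0.16; adjusted p = 4.1e-06), and Cxcl1 at 5.9, 8.05 and 7.69 FPKM and 1.38, 1.7 and 1.61 FPKM (1.67 ± 0.17; adjusted p = 2.6e-05). Il6, a cytokine that contracting muscle releases, was at 2.43, 1.85 and 2.44 FPKM with forskolin and 0.34, 0.42 and 0.26 FPKM without, 6.59-fold higher (1.27 ± 0.11; adjusted p = 3.7e-06). Socs2, an inhibitor of growth hormone signalling, was at 68.7 ± 5.27 FPKM with forskolin and 43.5 ± 2.68 FPKM without (adjusted p = 0.0012). The call of Osmr (adjusted p = 0.024) ended when any library but forskolin replicate 3 was left out (up to 0.106). Tnfsf11, which encodes the osteoclast factor RANKL and is named here after its values were seen, was at 3.91, 4.25 and 3.55 FPKM with forskolin and 0.18, 0.32 and 0.34 FPKM without (1.94 ± 0.07; adjusted p = 1.0e-09).

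Of 22 angiogenic and growth factors, 3 rose and 2 fell (22.7% called, against 4.3% of all genes). Vegfa, the main angiogenic factor of muscle, was at 208, 236 and 239 FPKM with forskolin and 122, 131 and 141 FPKM without (0.79 ± 0.14; adjusted p = 0.0029). Fgf7 was at 18.2 ± 1.38 FPKM with forskolin and 10.1 ± 1.26 FPKM without (adjusted p = 0.00082), and Hgf, the factor that activates satellite cells, at 37.03 ± 4.9 and 21.5 ± 2.85 FPKM (adjusted p = 0.011, up to 0.0601 without forskolin replicate 1 or untreated replicate 2 or 3). Hbegf, an EGF receptor ligand, fell to 7.56 ± 0.885 FPKM with forskolin, against 12.2 ± 0.955 FPKM without (adjusted p = 0.00073); the other that fell was Pdgfb (adjusted p = 0.015, up to 0.0757 without forskolin replicate 1 or untreated replicate 2 or 3). In the TGF-beta and BMP list 1 of 24 rose and 1 fell (8.33% called, against 4.3% of all genes). Inhba, the activin A subunit, was at 65.3, 52.5 and 50.6 FPKM with forskolin and 30.5, 23.7 and 22.8 FPKM without (1.1 ± 0.14; adjusted p = 0.00016), and Bmp4 was at 4.26, 5.2 and 5.14 FPKM with forskolin and 7.83, 9.13 and 8.55 FPKM without (-0.70 ± 0.09; adjusted p = 0.00026).

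Genes of the muscle program were mostly not called. As only 4.3% of all genes were called, a list without a call is not far from that share. None of 38 contractile genes was called (1 was lower without untreated replicate 1); their log2 fold changes ran from -0.29 to 0.29 with a median of -0.03, which was 0.03 without forskolin replicate 1. Their summed level was 31489 to 50931 FPKM with forskolin and 44210 to 47540 FPKM without. Much of that spread lay in Mylpf, the fast regulatory light chain, at 10519, 25640 and 23731 FPKM with forskolin and 21626, 21288 and 22207 FPKM without. Myog, the differentiation factor myogenin, was at 453, 659.5 and 695 FPKM with forskolin and 453, 622 and 621 FPKM without (adjusted p = 0.996). Ckm, muscle creatine kinase, was at 212, 287 and 288 FPKM with forskolin and 218, 255 and 273 FPKM without (adjusted p = 0.996). The groups overlapped in both. Myod1 was at 33.6 ± 5.59 FPKM with forskolin and 33.3 ± 3.56 FPKM without. None of 16 calcium handling genes was called either, and 1 of 13 acetylcholine receptor and junction genes fell (7.69%, against 2.27% of all genes). It was Colq, the collagen tail of acetylcholinesterase, at 2.55 ± 0.37 FPKM with forskolin and 4.29 ± 0.669 FPKM without (adjusted p = 0.0014).

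Of 16 myogenic regulators, 2 rose (12.5%, against 2.03% of all genes), both factors of undifferentiated muscle cells, and 0 in a fit of the 6 libraries alone. The first, Pax7, passed the filter through the forskolin libraries alone, so its place in this count depended on the difference itself. Pax7, the satellite cell factor, was at 1.3, 1.64 and 1.34 FPKM with forskolin and 0.85, 0.68 and 0.59 FPKM without (0.51 ± 0.10; adjusted p = 0.0083; 0.0529 without forskolin replicate 2). Myf5 was at 32.7 ± 0.782 FPKM with forskolin and 26.02 ± 0.785 FPKM without (adjusted p = 0.045), and its call ended with any 1 of the 6 libraries left out (up to 0.156). Day 7 cultures of this line hold fibres together with unfused cells, and fewer cells of a type cannot be told apart from less RNA per cell in these bulk libraries. Among 35 cell cycle genes, Ccnd1 (cyclin D1) fell to 9.34 ± 0.269 FPKM with forskolin, against 16.4 ± 1.69 FPKM without (-0.75 ± 0.11; adjusted p = 0.00067). In this list 11.4% were called, against 4.3% of all genes. The 3 that rose, Ccnb1, Aurka and Cdkn1b (adjusted p = 0.01 to 0.047), each lost the call without at least 2 libraries, so that 0 to 2 rose with 1 library left out. For Ccnb1 these were forskolin replicate 2 and untreated replicate 3, for Cdkn1b forskolin replicate 1 and untreated replicates 1 and 3, and for Aurka every library but forskolin replicate 1 (up to 0.192). Of 8 fibroblast and progenitor markers, 5 were tested and Pdgfrb fell (20% of the 5, against 2.27% of all genes). It was at 47.7 ± 2.37 FPKM with forskolin, against 60.9 ± 2.42 FPKM without (adjusted p = 0.0062). The summed level of the 8 markers was 314 to 399 FPKM with forskolin and 350.02 to 387 FPKM without.

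Metabolic genes moved singly. Of 35 genes of glucose uptake, glycolysis and glycogen, 3 rose (8.57%, against 2.03% of all genes), and 1 in a fit of the 6 libraries alone. Ppp1r3c, which targets a phosphatase to glycogen, was at 2.75, 2.88 and 2.78 FPKM with forskolin and 1.01, 1.05 and 1.0 FPKM without (0.91 ± 0.06; adjusted p = 5.4e-07). Pfkfb3, which makes the activator of phosphofructokinase, was at 17.1 ± 1.38 FPKM with forskolin and 11.97 ± 0.613 FPKM without (adjusted p = 0.002). Hk2, the insulin-responsive hexokinase of muscle, was at 32.9 ± 1.64 FPKM with forskolin and 23.2 ± 4.02 FPKM without (adjusted p = 0.038), a call that ended when any library but untreated replicate 1 was left out (up to 0.174). Lpl, a lipase that frees fatty acids from lipoproteins, was at 126, 127 and 139.98 FPKM with forskolin and 79.6, 80.9 and 82.8 FPKM without (0.68 ± 0.08, adjusted p = 0.00017). It was 1 of 12 tested adipocyte genes to rise, in a list with 16.7% called in either direction, against 4.3% of all genes. Pparg, the adipocyte master factor, was at 1.59, 1.43 and 1.54 FPKM with forskolin and 2.05, 2.37 and 2.25 FPKM without (adjusted p = 0.029), and the call ended when any library but untreated replicate 1 was left out (up to 0.135).

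Of 24 tested genes of cholesterol synthesis and uptake, 5 rose (20.8%, against 2.03% of all genes), none fell and 19 were not called, with a median of 0.15. Sqle, squalene epoxidase, was at 58.3, 63.5 and 64.8 FPKM with forskolin and 39.4, 43.5 and 44 FPKM without (0.55 ± 0.07; adjusted p = 0.00012), and Insig1, a sterol sensor, at 24.7 ± 0.836 and 19.5 ± 0.774 FPKM (adjusted p = 0.0076). These were the 2 called whichever library was left out. The others, among them Hsd17b7, an enzyme of the same pathway (adjusted p up to 0.0619 without forskolin replicate 3 or untreated replicate 2), lost the call without at least 2 libraries, so 2 to 5 rose with 1 library left out, and 1 rose in a fit of the 6 libraries alone.

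Of 9 tested brown fat genes, 2 rose (22.2%, against 2.03% of all genes, and 0 in a fit of the 6 libraries alone). They were Ppargc1a and Dio2, the deiodinase that activates thyroid hormone, the latter at 16.8 ± 1.29 FPKM with forskolin and 13.1 ± 0.835 FPKM without (adjusted p = 0.037). The call of Dio2 ended without forskolin replicate 1 or 3 or untreated replicate 2 or 3 (up to 0.162). Ppargc1a passed the filter through the forskolin libraries alone, so its place in this count depended on the difference itself. Ucp1, the uncoupling protein of brown fat, was listed at 0 in all 6 libraries. None of 8 tested genes of lipolysis and adrenergic receptors was called, against 4.3% of all genes. In the lipogenesis list 2 of 14 rose (14.3%, against 2.03% of all genes, and 0 in a fit of the 6 libraries alone). They were Lpin1, at 6.63 ± 0.432 FPKM with forskolin and 4.77 ± 0.252 FPKM without (adjusted p = 0.0044), and Elovl6 (adjusted p = 0.032, lost without any library but forskolin replicate 3, up to 0.148).

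Among genes of insulin action and mTORC1, single members were called. In the FOXO and glucocorticoid list 12% were called and in the IGF and insulin list 10%, against 4.3% of all genes. Ddit4, an inhibitor of mTORC1 also known as REDD1, was at 143, 189.7 and 203 FPKM with forskolin and 69.8, 83.2 and 81.6 FPKM without (1.17 ± 0.21; adjusted p = 0.0034). Sesn1, another restraint on mTORC1, fell to 23.8 ± 1.68 FPKM with forskolin, against 32.1 ± 2.21 FPKM without (adjusted p = 0.0018); with Per1 these were the 3 called of 25 FOXO and glucocorticoid targets. Of 20 IGF and insulin genes, Igfbp4 rose to 19.8 ± 3.17 FPKM with forskolin, against 10.8 ± 0.658 FPKM without (adjusted p = 0.0029), and Irs1, an insulin receptor substrate, fell to 5.44 ± 0.478 FPKM with forskolin, against 8.61 ± 1.4 FPKM without (adjusted p = 0.0019). Irs2, a CREB target in other tissues, was at 1.84, 2.42 and 2.57 FPKM with forskolin and 1.51, 2.0 and 1.56 FPKM without and was not called (adjusted p = 0.61).

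Of 20 stress and heat shock genes, 2 rose and 4 fell (30% called, against 4.3% of all genes), and in a fit of the 6 libraries alone 1 rose and 2 fell. The 4 that fell, Trib3, Chac1, Ddit3 and Asns, are targets of ATF4 in the integrated stress response. Trib3, a pseudokinase, was at 2.59, 4.6 and 4.74 FPKM with forskolin and 9.28, 11.6 and 10.4 FPKM without (-1.23 ± 0.22; adjusted p = 0.0031). Chac1, which degrades glutathione, was at 4.52, 5.79 and 6.57 FPKM with forskolin and 11.4, 15.9 and 15.04 FPKM without (-1.19 ± 0.22; adjusted p = 0.0049). Both lay lower in all treated libraries. Ddit3, which encodes CHOP, was at 27.3 ± 4.47 FPKM with forskolin and 40.9 ± 5.49 FPKM without (adjusted p = 0.024; up to 0.132 without forskolin replicate 1 or untreated replicate 2 or 3). Asns, asparagine synthetase, was at 39.2, 38.4 and 52.8 FPKM with forskolin and 57.5, 57.9 and 57.04 FPKM without (adjusted p = 0.036; lost without any library but forskolin replicate 3, up to 0.187). Hsph1, a heat shock protein, rose to 49.8 ± 4.27 FPKM with forskolin, against 32.5 ± 2.46 FPKM without (adjusted p = 0.00068), and Hmox1, heme oxygenase, to 45.8 ± 3.35 FPKM, against 32.2 ± 2.21 FPKM (adjusted p = 0.011; up to 0.0608 without forskolin replicate 2 or 3 or untreated replicate 1). None of 25 tested extracellular matrix genes was called, against 4.3% of all genes.

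**Figure D4:**
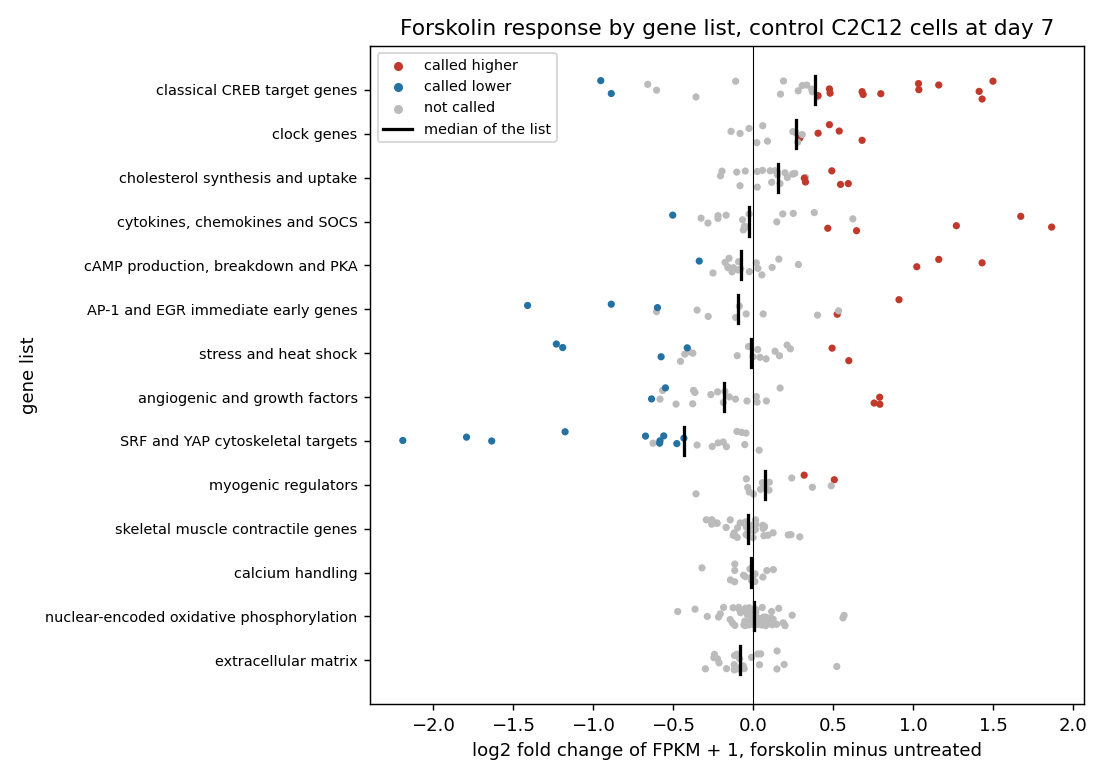
Log2 fold change of FPKM + 1 (forskolin minus untreated, horizontal) of each tested member of 14 gene lists (vertical) in control cells at day 7; points are genes, red called higher, blue called lower, grey not called, and black bars the list medians. The median of the CREB target list is 0.39 and that of the SRF and YAP list -0.43, while the contractile, calcium handling, oxidative phosphorylation and matrix lists, all uncalled, lie between -0.08 and 0.01.

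The same treatment was applied to C2C12 cells expressing NFIA, whose Fabp4, the fatty acid binding protein of fat cells, was at 22388 ± 1058 FPKM without forskolin, against 4.3 ± 2.52 FPKM in control cells, and the difference between both responses (NFIA cells minus control cells) was tested as an interaction. In NFIA cells forskolin changed 4313 genes (32.6% of those tested), against 569 (4.3%) in control cells, and the interaction was called for 2605 (19.7%). The genes tested had passed the filter in control cells, so genes above it only in NFIA cells are not in these counts. Nr4a3, at 200 ± 20.9 FPKM with forskolin and 1.1 ± 0.22 FPKM without in NFIA cells, is thus not counted. Of the 269 genes that rose in control cells, 160 also rose in NFIA cells, 27 fell there and 82 were not called. Of the 300 that fell in control cells, 93 also fell in NFIA cells, 78 rose there and 129 were not called. The interaction was called for 154 of the 269 and for 187 of the 300, including all 78 that rose in NFIA cells. The part of this difference in cell state in the responses was not tested. Nfia itself was at 9852 ± 608 FPKM with forskolin and 3343 ± 212 FPKM without in NFIA cells, and the part of that difference was not tested either.

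**Figure D5:**
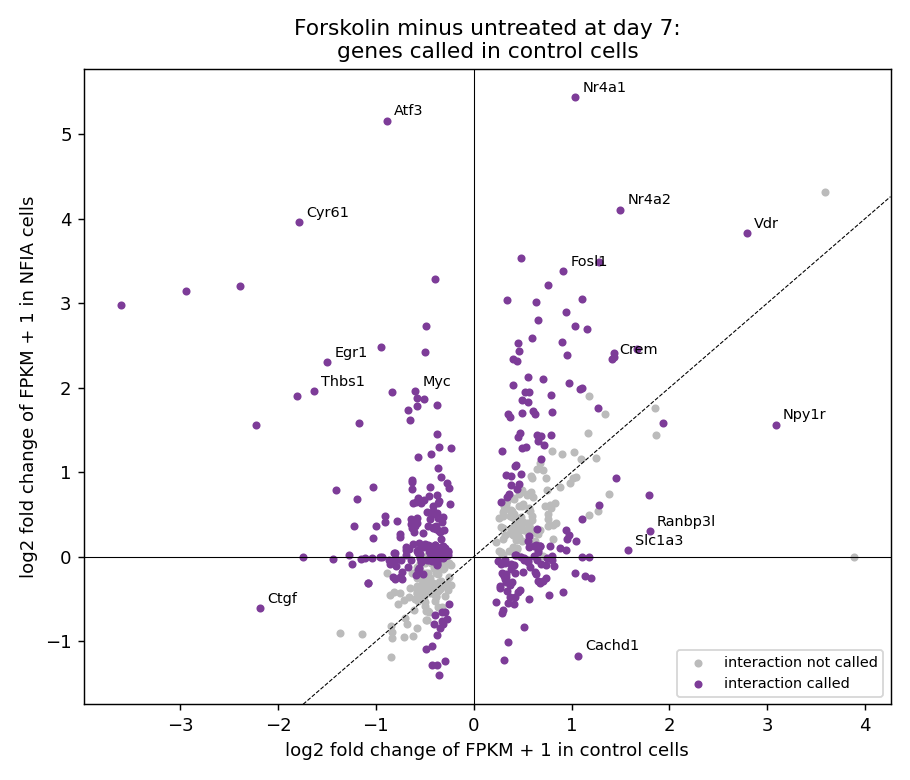
Log2 fold change of FPKM + 1 (forskolin minus untreated, day 7) in NFIA cells (vertical) against that in control cells (horizontal) for the 569 genes called in control cells; purple points have a called interaction, grey points do not, and the dashed line marks equal responses. Atf3, Cyr61, Thbs1, Egr1 and Myc lie in the upper left, higher in NFIA cells and lower in control cells, and Nr4a1 and Nr4a2 rose in both.

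In the CREB target list, 23 of 26 rose and 1 fell in NFIA cells (median 2.59), against 12 and 2 in control cells (median 0.39), and the interaction was positive for 21 and negative for none. It was not called for Per1 (0.43 ± 0.15; adjusted p = 0.054) or Rgs2 (0.45 ± 0.16; adjusted p = 0.059), which rose in control cells. Nr4a1 was at 412 ± 59.1 FPKM with forskolin and 8.62 ± 1.81 FPKM without in NFIA cells, a rise of 5.43 ± 0.18 against 1.04 ± 0.18 in control cells (interaction 4.4 ± 0.25; adjusted p = 1.6e-08). Crem was at 64.6 ± 8.06 FPKM with forskolin and 11.9 ± 0.65 FPKM without in NFIA cells (2.34 ± 0.11, against 1.41 ± 0.11 in control cells; interaction 0.92 ± 0.16, adjusted p = 0.00083). Without forskolin Nr4a1 differed little between NFIA and control cells, and with it the gap was wide. For Sik1 the interaction was 1.7 ± 0.14 (adjusted p = 5.1e-07) and for Pde4b 0.98 ± 0.13 (adjusted p = 6.1e-05). For Pde3b the responses were 1.24 ± 0.20 in NFIA cells and 1.02 ± 0.20 in control cells (interaction 0.22 ± 0.28; adjusted p = 0.68), and for Vegfa 0.58 ± 0.14 and 0.79 ± 0.14 (interaction -0.21 ± 0.20; adjusted p = 0.53); neither interaction was called.

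Most SRF and YAP targets that fell in control cells rose in NFIA cells. Of the 21, 11 rose and 2 fell in NFIA cells (median 0.46), and none rose and 10 fell in control cells (median -0.43); the interaction was positive for 13, including all 10 that fell in control cells. Cyr61 was at 256 ± 38.3 FPKM with forskolin and 15.5 ± 2.44 FPKM without in NFIA cells (3.96 ± 0.16), against 26.6 ± 4.54 and 94.1 ± 11.5 FPKM in control cells (-1.79 ± 0.16; interaction 5.75 ± 0.23, adjusted p = 3.1e-10). Thbs1 rose by 1.96 ± 0.11 in NFIA cells (interaction 3.59 ± 0.15; adjusted p = 9.1e-10). Of the 10, Cnn2 was not called in NFIA cells (0.17 ± 0.13), and Ctgf fell in NFIA cells too, by a smaller amount (-0.61 ± 0.12, against -2.19 ± 0.12 in control cells; interaction 1.58 ± 0.16, adjusted p = 6.8e-06). Egr1, Atf3 and Myc, which fell in control cells, rose in NFIA cells by 2.3, 5.16 and 1.96, with interactions of 3.8, 6.04 and 2.56 (adjusted p = 4.8e-11, 5.1e-12 and 8.1e-09).

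For some genes the interaction was negative. The log2 scale of FPKM + 1 understates changes at low FPKM, so for such genes a negative value need not mean a smaller fold in NFIA cells. This limits Npy1r and Il1rl1. Il1rl1 in NFIA cells was at 0.81 FPKM with forskolin and 0.0633 FPKM without, against 9.77 and 2.07 FPKM in control cells. Npy1r was at 2.0 ± 0.0954 FPKM with forskolin and 0.0167 ± 0.0153 FPKM without in NFIA cells (1.56 ± 0.08, against 3.08 ± 0.08 in control cells; interaction -1.52 ± 0.11, adjusted p = 2.2e-07). Slc1a3 was at 8.44 ± 0.579 FPKM with forskolin and 7.93 ± 0.65 FPKM without in NFIA cells and was not called there (adjusted p = 0.62; interaction -1.5 ± 0.15, adjusted p = 4.3e-06). Cachd1, a membrane protein with calcium channel domains, rose to 4.29 ± 0.903 FPKM in treated control cells, against 1.503 ± 0.235 FPKM in untreated ones, and fell to 9.53 ± 2.17 FPKM in treated NFIA cells, against 22.4 ± 2.19 FPKM in untreated ones (interaction -2.24 ± 0.26; adjusted p = 2.0e-05). Ppp1r3c likewise rose in control cells and fell in NFIA cells (interaction -1.33 ± 0.09; adjusted p = 8.2e-08). Il1rl1 rose by 0.74 ± 0.17 in NFIA cells and by 1.8 ± 0.17 in control cells (interaction -1.06 ± 0.24; adjusted p = 0.0055), and Ranbp3l by 1.8 ± 0.31 in control cells while it was 0.30 ± 0.31 in NFIA cells (interaction -1.5 ± 0.44; adjusted p = 0.026). The interaction of Ranbp3l lost its call without forskolin replicate 1 or 2 or untreated replicate 3 of the control cells, and without forskolin replicate 1 or 2 or untreated replicate 1 of the NFIA cells (adjusted p up to 0.0696). The interaction of Vdr was positive: it rose in both, by 3.83 ± 0.17 in NFIA cells and 2.79 ± 0.17 in control cells (interaction 1.04 ± 0.24; adjusted p = 0.0061).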

How the data were processed

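Libraries were TruSeq Stranded mRNA from polyA RNA isolated by Trizol and RNeasy, per the labels' protocols. The authors deposited FPKM per gene and library, and the submitters' processing notes name TopHat, Cufflinks and mm9; tool versions, annotation and strand use are not stated, so overlapping and antisense genes cannot be told apart. Of 37305 entries, 264 with the symbol of another entry at an overlapping locus were merged with it, and 32488 of 37041 gene IDs matched GENCODE M21. Positions in mm9 are the locus listed with an entry, which can span more than the gene.

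From these values, log2(FPKM + 1) of all 18 C2C12 libraries was fitted with limma 3.58.1 in R 4.3.3 (group means, variance trend, 12 residual degrees of freedom, two-sided moderated tests). The contrasts were forskolin minus untreated at day 7 in control cells, the same in NFIA cells, and their difference. Genes with at least 1 FPKM in at least 3 of the 6 control libraries were tested, with Benjamini-Hochberg adjustment over all 13235 and calls at 0.05. FPKM are not counts, so no count test or interval was used. On simulated data with the spread of these libraries, shifts of 0.5, 1 and 2 (log2) were called for 26 of 67, 49 of 67 and 64 of 66 genes, with 13 false calls among 13035. The simulated noise was normal and independent, without differences shared by many genes of a library, and weakly expressed genes were not shifted. Recovery of weak genes and false calls under shared differences are therefore unknown.

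Genes were named by a rule: 21 fixed genes, the 12 largest called changes per direction with at least 5 FPKM and no overlap, up to 4 called members of each list, and the 5 largest interactions per direction. Where no list member was called, the 2 most abundant were eligible. The comparison, 35 lists and rule were chosen with earlier results of these data known; further list members and genes with a motif were named after their values were seen. A few genes are not reported here. A list counts each symbol by its most abundant entry. Upstream windows (250 bases) came from the RefSeq table of GRCm38.p6, matched to 8305 of 13235 tested genes, which share 8292 entries of that table, and read by gene, not by mm9 coordinate. Library 1 of each group has no number in its label; it was numbered 1. Alternatives were a pseudocount of 0.1, filters of none or 5 FPKM, other scalings, no variance trend, the contrast's libraries alone, a replicate block, numbered libraries alone, zeros of abundant genes as missing, each library left out, and, added after seeing the data, the header year as a term.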

Additional observations from a re-analysis of the deposited data

Results flagged for a closer look

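By the interaction test, 2605 of the 13235 genes tested, which had passed the filter in control cells, responded to forskolin differently in NFIA cells than in control cells. Every value here is that interaction on the log2 scale, NFIA cells minus control cells. No explanation was tested. Among CREB targets and early genes it was 4.4 for Nr4a1, 2.61 for Nr4a2, 3.23 for Fos, 2.81 for Junb, 6.04 for Atf3 and 2.55 for Dusp1. In the feedback genes it was 0.92 for Crem, 1.7 for Sik1, 0.98 for Pde4b and 1.54 for Pde4d. Metabolic regulators gave 3.06 for Ppargc1a, 3.13 for Irs2 and 0.66 for Pparg. Nfia, the gene added to the NFIA cells, gave 1.37. In NFIA cells it was at 9852 ± 608 FPKM with forskolin and 3343 ± 212 FPKM without. The level of Nfia thus differed between the NFIA groups compared here.

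Among SRF and YAP targets that fell in control cells it was 5.75 for Cyr61, 3.59 for Thbs1, 2.46 for Actg1, 2.41 for Fhl2, 1.65 for Flna, 1.58 for Ctgf, 1.04 for Actb, 1 for Vcl and 0.73 for Cnn2. The 3 U1 entries gave 6.58, 6.09 and 5.6. Negative values were -2.24 for Cachd1 and -1.53 for AI464131, which rose in control cells and fell in NFIA cells, and -1.52 for Npy1r, -1.5 for Slc1a3 and -1.5 for Ranbp3l. Npy1r without forskolin was at 0.0167 FPKM in NFIA cells and 0.103 FPKM in control cells. At such levels the value need not mean a smaller fold in NFIA cells. AI464131 was at 16.1 ± 1.28 FPKM with forskolin and 38.8 ± 2.45 FPKM without in NFIA cells (-1.22 ± 0.08; adjusted p = 3.1e-08). Its rise in control cells, 0.31 ± 0.08, had an adjusted p of 0.046, a call that ended with any 1 of the 6 libraries left out (adjusted p up to 0.207).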

How the results depend on the processing

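No named call in control cells reversed under any alternative. Of 84 called named genes, 49 were called under every alternative in which they were tested. With the filter of 5 FPKM only 70 of the 84 were tested. The number called in control cells, 569, was 239 with the contrast's 6 libraries alone (53 of 84 named genes kept), 1263 with a replicate block and 1354 with the header year as a term, an alternative added after seeing the data. It was 426 to 781 under the other alternatives and 372 to 446 with 1 library left out. The interaction count, 2605, was 4738 with a replicate block, 4916 with the block and the contrasts' libraries alone, 4387 with numbered libraries alone and 4822 with the header year; it was 2133 to 2597 with 1 library left out. Same-numbered libraries of the control groups deviated together at r = 0.375, 0.031 and 0.154, under 0.1 in 1 pair. Forskolin replicate 2 correlated best with untreated replicate 3 (0.285), so the numbers were not taken to pair them. Libraries of the same header year correlated at 0.031 to 0.375, and those of different years at -0.327 to -0.08. The main fit has no term for this pattern by year. In the SRF and YAP list, 4 fell with the contrast's 6 libraries alone, and in the CREB list 10 rose. With the replicate block Dusp1 (adjusted p = 0.00195) and Fos (0.0375) passed. The interaction of Nfia lost its call with a pseudocount of 0.1 (adjusted p = 0.129) and with quantile normalization (0.157), and that of Ranbp3l with a pseudocount of 0.1 (0.346) and numbered libraries alone (0.157). The cause of these changes was not tested. Depth is unknown, so weakly expressed genes cannot be graded by read number.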
